A study of Homo sapiens with 6 samples.

Results

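The zinc finger genes of chromosome 19 described here are the protein-coding genes of that chromosome whose GENCODE 29 symbol is ZNF, a number and at most 1 letter. They are 246 of the 58735 genes in the files. RNA was sequenced from A549 cells, an established line from a human non-small cell lung cancer labelled as wild type. In 3 libraries the cells had received B35, named by the submitters as an inhibitor of the histone demethylase LSD1, at 2 µM for 72 h, and in 3 control libraries the cells were untreated over 72 h. The labels name no solvent for the controls and leave unsaid if each library had its own culture. The p-values therefore cover the spread among 6 libraries, which may be technical.

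Most of these genes encode KRAB zinc finger proteins, which arose by repeated gene duplication. Their C2H2 zinc fingers bind DNA, often in transposable elements. Their KRAB domain binds TRIM28, which brings in the methyltransferase SETDB1 and heterochromatin proteins and so silences the bound site. LSD1 removes methyl groups from histone H3 and works in repressor complexes.

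A KRAB-like motif was found in the translated coding region of 209 of the 246 genes, and all but ZNF738 held at least 1 C2H2 motif, with a median of 12 and a maximum of 36 in ZNF208. In the other 37 genes no KRAB motif was detected.

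The library totals ran from 17141478 to 18530670 counts, and B35 replicate 1 stood farthest from its group (chi-square per degree of freedom of 26.3 and 32.3 against the other B35 libraries, and 10.2 between those). KDM1A, the gene of LSD1, measured 184 ± 8.97 CPM (counts scaled by library total and TMM factor) in B35 cells and 198 ± 2.56 CPM in control cells (SD, n = 3 each) and did not pass (edgeR adjusted p = 0.432), and its transcript level is no measure of enzyme activity. The keratin genes KRT7, KRT8 and KRT18 of epithelial cells were above 450 CPM in both groups, with KRT8 lower, at 1117 CPM in B35 cells and 1663 CPM in control cells (edgeR adjusted p = 0.00611). The epithelial adhesion gene EPCAM was higher, at 7.21 CPM in B35 cells and 3.36 CPM in control cells (edgeR adjusted p = 0.00248). AKR1C1, an aldo-keto reductase gene, was also higher, at 31.9 CPM in B35 cells and 13.4 CPM in control cells (edgeR adjusted p = 0.000407). The part of these changes in the results on zinc finger genes was not tested. ALDH1A1, an aldehyde dehydrogenase gene listed as a marker of A549, was nearly absent, at 0.511 CPM in B35 cells and 0.209 CPM in control cells, which goes against the label, and the cells are called A549 here as labelled. In addition, the alveolar markers SFTPC, SFTPB and NKX2-1 were at 0.273 CPM or less. Of markers of other cell types, PTPRC, CD3E, LYZ and PECAM1 were at 0.352 CPM or less, while COL1A1 was at 19.9 CPM in B35 cells and 24.99 CPM in control cells.

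Few of the chromosome 19 zinc finger genes passed the test for a change with B35. Of the 164 with enough counts to test, 6 were higher in B35 cells and none was lower (edgeR, quasi-likelihood, called where the p adjusted over all genes tested by Benjamini-Hochberg was under 0.05). That is 3.66% of those tested, against 15.4% of all 14773 genes tested, where 8.82% were higher and 6.59% lower. At an unadjusted p under 0.05, 27 members were higher and 1 lower (17.1% of members, against 30.7% of all genes). The KRAB genes ZNF554, ZNF792, ZNF525 and ZNF264 and the genes without a KRAB motif ZNF581 and ZNF526 were the ones that passed. Their rises ranged from 1.28-fold to 2.06-fold. In bulk RNA a change in the mix of cells and a change in RNA per cell cannot be told apart. When any 1 control library was left out, 2 members passed, ZNF554 and ZNF581. Calls over all genes also became fewer. Without control replicate 1, 2 or 3, 661, 787 and 587 of all genes were higher and 418, 499 and 294 lower. With all 6 libraries, 1303 were higher and 973 lower. After correction of every library for transcript GC and exon length, 15 members were higher and 2 lower, and over all genes 1756 were higher and 2329 lower, against 1303 and 973 without it.

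Levels of the group were low. The median member tested had 7.92 CPM, against 24.9 CPM for all genes tested, and per kilobase of exon the medians were 1.55 and 4.98 CPM. The median standard error of the log2 fold change was 0.18 for members and 0.14 for all genes. In 140 of the 164 members (85.4%, against 80.0% of all genes tested) the 95% interval of the fold change lay within 2-fold in either direction. It lay within 1.5-fold in 69 (42.1%, against 52.8%), and in the others it reached past 1.5-fold in at least 1 direction.

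**Figure D1:**
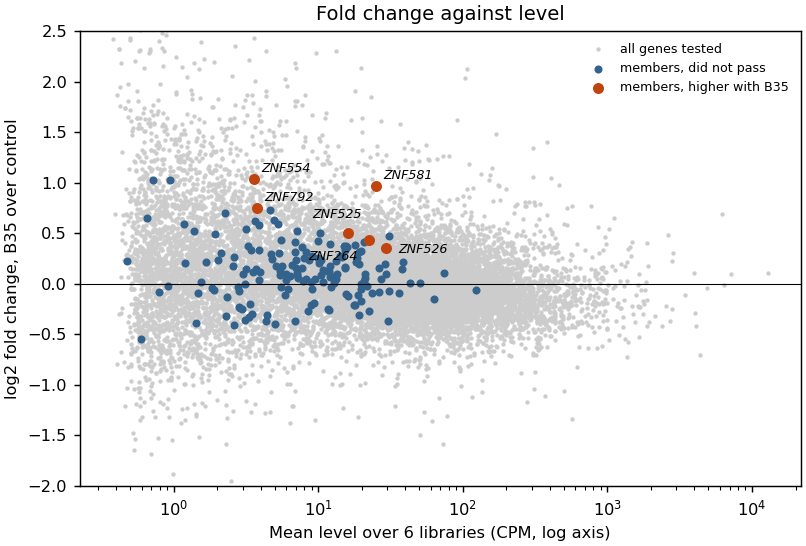
Log2 fold change (B35 over control) against the mean level over 6 libraries in CPM on a log axis. Grey points are all genes tested (those beyond the vertical limits are not drawn), blue points the members that did not pass and orange points the 6 that were higher, which lie between 0.36 and 1.04.

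ZNF554 encodes a KRAB zinc finger protein with 7 C2H2 motifs and lies on chromosome 19 from 2819874 to 2835773, plus strand, in hg38. Its level was 5.26, 4.61 and 4.74 CPM in the B35 libraries, against 2.62, 2.33 and 2.14 CPM in the control libraries. Every B35 library was above every control. The rise was 2.06-fold (log2 1.04 ± 0.20, SE, edgeR adjusted p = 0.00699). It rested on 93, 83 and 90 counts in the B35 libraries and 47, 42 and 36 counts in the control libraries.

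ZNF581, a small zinc finger gene with 4 C2H2 motifs and no KRAB motif (55635459 to 55645622, plus strand), had 26.1, 41.3 and 32.1 CPM in the B35 libraries, against 17.2, 16.0 and 17.7 CPM in the control libraries. The B35 libraries spread more widely than the controls, and the groups did not overlap. It rose by 1.96-fold (log2 0.97 ± 0.16, SE, edgeR adjusted p = 0.00343), the smallest adjusted p of the group. Other genes share 30.5% of its exon positions, foremost its neighbour ZNF580 on the same strand, so reads could be split between them. ZNF580 had 42.2, 39.2 and 42.6 CPM in the B35 libraries and 37.1, 33.7 and 36.2 CPM in the control libraries and did not pass (log2 0.21 ± 0.097, SE, edgeR adjusted p = 0.164).

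ZNF792, a KRAB gene with 12 C2H2 motifs (34956354 to 34964049, minus strand), had 5.03, 4.94 and 4.27 CPM in the B35 libraries, against 3.07, 2.66 and 2.74 CPM in the control libraries. It rose by 1.68-fold (log2 0.75 ± 0.20, SE, edgeR adjusted p = 0.027). Its call was lost without any 1 of the controls or without B35 replicate 2 (edgeR adjusted p between 0.0641 and 0.105).

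The 3 other members that passed had smaller rises. ZNF525, a KRAB gene, had 19.7, 16.0 and 20.9 CPM in the B35 libraries, against 13.5, 13.2 and 13.1 CPM in the control libraries, which is 1.42-fold higher (edgeR adjusted p = 0.0277). ZNF264, a KRAB gene with 12532 bases of exon, had 24.8, 26.7 and 26.2 CPM in the B35 libraries, against 19.7, 20.04 and 17.8 CPM in the control libraries, 1.35-fold higher (edgeR adjusted p = 0.0239). ZNF526, without a KRAB motif, had 32.6, 30.5 and 35.6 CPM in the B35 libraries, against 25.6, 26.2 and 25.1 CPM in the control libraries, 1.28-fold higher (edgeR adjusted p = 0.0427). In these genes, too, no B35 library reached down to a control. All of them lost the call without any 1 of the controls (edgeR adjusted p between 0.0616 and 0.179), ZNF525 also without B35 replicate 3 (0.0857), and ZNF264 and ZNF526 without B35 replicate 2 or 3 (0.0555 to 0.121). ZNF526 also lost it without the filter on counts (edgeR adjusted p = 0.0768).

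**Figure D2:**
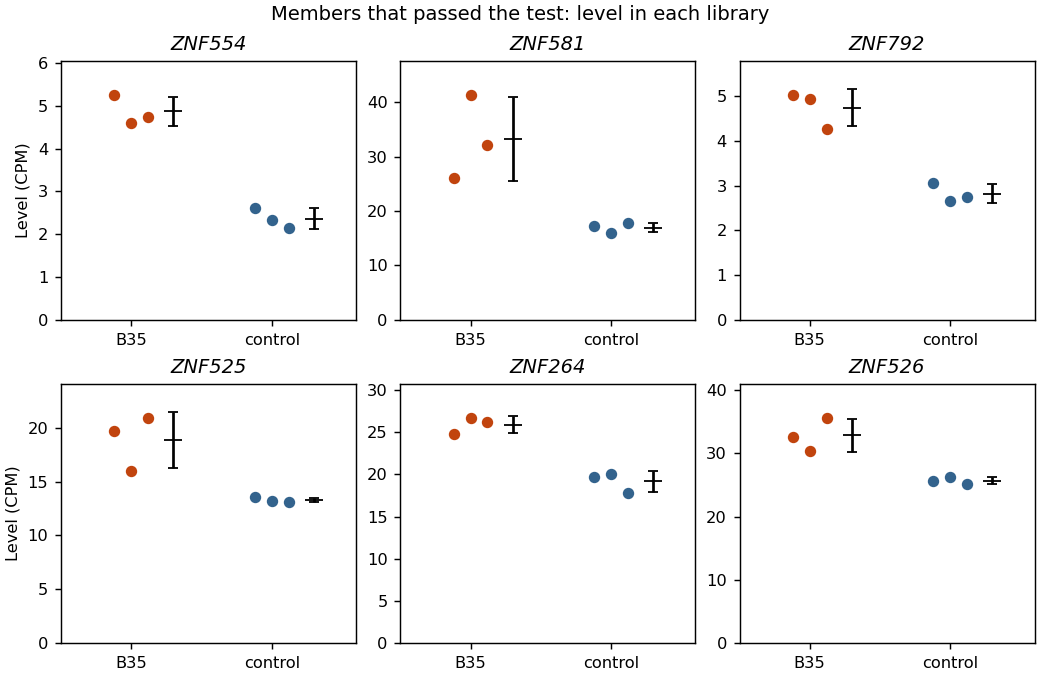
Level in CPM of the 6 members that passed, with a point for each library (B35 orange, control blue) and the mean ± SD of 3 libraries in black. In every panel the lowest B35 point is above the highest control point.

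Many promoters of the group share a short stretch. RefSeq start sites (build GRCh38.p14) matched 215 of the 246 genes by symbol. Among 10-base words present in at least 30 of these promoters (250 bases before to 50 after the start, either strand), the word with the highest share of its carriers in the group was CCTGATTGGA, with the reverse complement TCCAATCAGG. It was in the promoters of 43 of 215 members, in 16 of 214 ZNF genes on other chromosomes (7.48%) and in 117 of 27305 genes in all (0.428%). It contains ATTGG, the reverse complement of the CCAAT box, which binds the factor NF-Y. The box was in 122 member promoters (56.7%), against 39.7% of all. Among ZNF genes on other chromosomes it was in 103 of 214 (48.1%), so they shared part of this excess. The 10-base word was chosen for the share of its carriers in the group, so it is a description and not a test. None of the 6 members that rose carries the word. That is 0 of 21 tested carriers, against 6 of 126 tested members with a promoter and no such word (4.76%). The difference was not tested, and 21 carriers are few for such a share. The median log2 fold change was 0.18 in the tested carriers and 0.12 in the 126 without the word. Of the 43 carriers 22 had too few counts to test, against 46 of 172 other members with a promoter. Most carriers lie in stretches 3 and 4 of the chromosome, described below, where 13 of 25 and 24 of 37 members were untested. The word and the position were not separated, and the part of either was not tested.

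The 250 bases before the start are shown for ZNF554 and ZNF792, the KRAB genes with the largest rise among the members that passed, and for ZNF791 and ZNF431, the tested carriers of the word with the highest levels in CPM. Capitals mark the 10-base word and each CCAAT or ATTGG, which can overlap it.
ZNF554, chr19:2819618-2819867, plus strand: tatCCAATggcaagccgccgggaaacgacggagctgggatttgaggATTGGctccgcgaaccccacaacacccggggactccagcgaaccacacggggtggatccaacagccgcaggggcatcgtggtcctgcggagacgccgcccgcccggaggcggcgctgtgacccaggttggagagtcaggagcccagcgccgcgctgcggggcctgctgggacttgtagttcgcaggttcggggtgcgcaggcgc
ZNF792, chr19:34964230-34964479, minus strand: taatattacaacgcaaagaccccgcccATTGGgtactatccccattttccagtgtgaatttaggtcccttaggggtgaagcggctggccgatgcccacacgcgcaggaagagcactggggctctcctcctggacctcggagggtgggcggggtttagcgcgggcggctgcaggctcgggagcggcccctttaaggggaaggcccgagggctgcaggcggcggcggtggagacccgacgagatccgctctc
ZNF791, chr19:12610670-12610919, plus strand: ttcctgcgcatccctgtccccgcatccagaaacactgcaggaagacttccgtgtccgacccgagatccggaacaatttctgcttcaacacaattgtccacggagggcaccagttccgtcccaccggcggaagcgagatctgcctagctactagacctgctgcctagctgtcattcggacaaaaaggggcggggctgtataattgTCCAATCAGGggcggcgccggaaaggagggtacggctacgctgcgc
ZNF431, chr19:21141790-21142039, plus strand: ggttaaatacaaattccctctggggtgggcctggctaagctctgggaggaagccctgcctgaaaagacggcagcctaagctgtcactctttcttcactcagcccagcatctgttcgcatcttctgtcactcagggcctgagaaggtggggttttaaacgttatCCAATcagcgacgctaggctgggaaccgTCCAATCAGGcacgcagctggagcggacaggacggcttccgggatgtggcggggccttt
ZNF554 holds 26 CpG dinucleotides in this stretch and ZNF792 holds 20, against 19 in ZNF791 and 11 in ZNF431. Of the other members that passed, ZNF264 holds 23, ZNF526 21, ZNF581 19 and ZNF525 15, so the counts overlap. ZNF791 averaged 20.4 ± 2.52 CPM in B35 cells and 17.7 ± 0.967 CPM in control cells, and ZNF431 averaged 19.7 ± 3.21 CPM in B35 cells and 16.9 ± 3.39 CPM in control cells (SD, n = 3 each). Neither passed (edgeR adjusted p = 0.315 and 0.423).

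Although few members passed, more lay above 0 than below it. The log2 fold change was positive in 113 of 164 members (68.9%) and negative in 51, against 51.0% positive among all genes tested. The median was 0.12, against 0.007 for all genes. It ran from −0.55 in ZNF585A to 1.04 in ZNF554, with an interquartile range of −0.06 to 0.30. All 3 B35 libraries were above all controls in 35 members (21.3%, against 18.8% of all genes) and below all controls in 6 (3.66%, against 17.5%). The median stayed above 0 in every alternative run, between 0.063 without control replicate 2 and 0.149 with upper-quartile scaling or without B35 replicate 3. ZNF genes on other chromosomes had a median of 0.06 with 12 of 211 higher and 1 lower. Of these 63.0% were positive, and 19.9% were above and 8.06% below all controls, so they shared part of the skew. Other protein-coding genes of chromosome 19 had a median of 0.04 with 91 of 728 higher and 42 lower. Of these 54.9% were positive, and 21.2% were above and 18.5% below all controls. No test of the difference between these groups of genes was made.

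**Figure D3:**
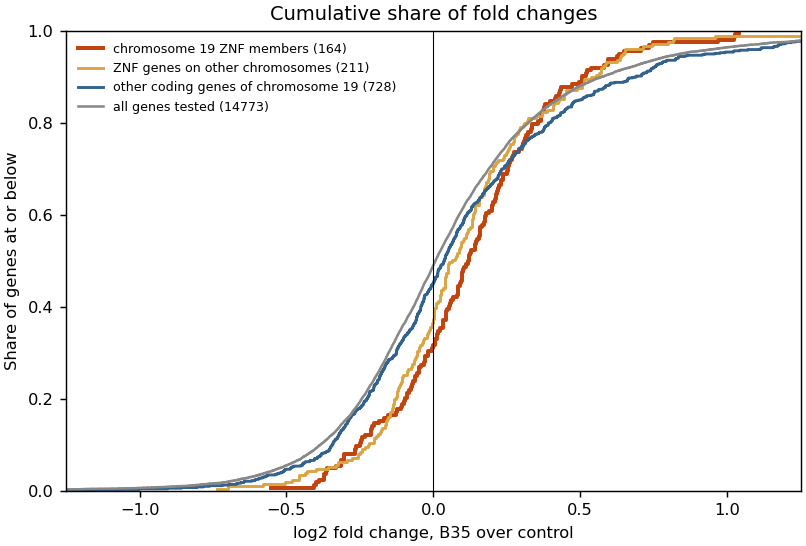
Cumulative share of genes by log2 fold change (B35 over control) for members, ZNF genes on other chromosomes, other coding genes of chromosome 19 and all genes tested (values beyond the horizontal limits are not drawn). The curve of the members lies to the right of the others around 0, where 51 of 164 members are negative, and has its median at 0.12.

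The summed level of the 246 genes was 2130, 2030 and 2044 CPM in the B35 libraries, against 2022, 1860 and 1915 CPM in the control libraries. The lowest B35 library stood just above control replicate 1. The ratio of the means was 1.07, and the exact two-sided permutation test gave p = 0.1, the smallest that 3 against 3 allow. The median shift of the tested members from the control mean, on log2(CPM + 0.5), was 0.18, 0.08 and 0.07 in the B35 libraries, against 0.04, −0.04 and 0.004 in the control libraries. B35 replicate 1 thus had the largest shift.

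The order of GC-rich and GC-poor members was reversed in 1 of the B35 libraries. In the 22 tested members with a transcript GC content of 55% or more, the median shift was 0.07, 0.17 and 0.24 in B35 replicates 1, 2 and 3. In the 142 tested members of lower GC content it was 0.20, 0.06 and 0.05. Other genes with the same high GC content shifted by −0.12, 0.10 and 0.19. B35 replicate 1 was the lowest of the B35 libraries among GC-rich genes and the highest among GC-poor members, and its part in the results was not tested beyond leaving it out. Without it 9 members were higher and none lower, and the median was 0.08.

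**Figure D4:**
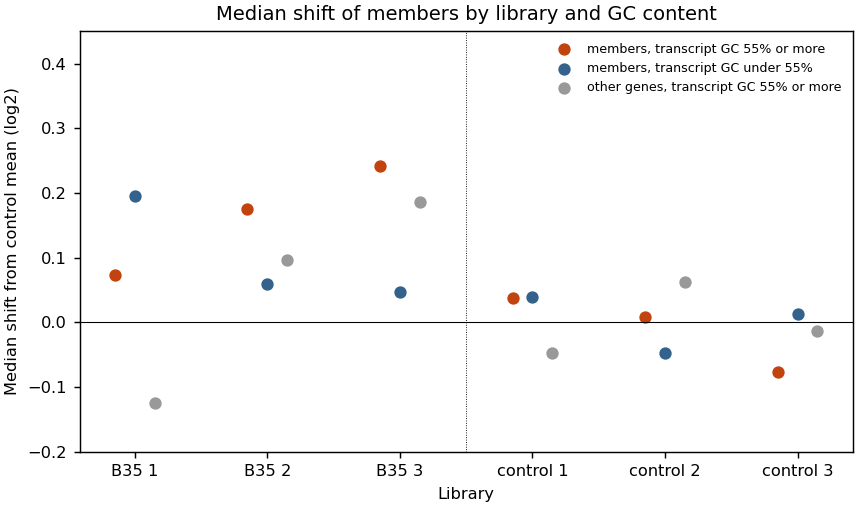
Median shift from the control mean on the log2(CPM + 0.5) scale, by library, for GC-rich members (orange), the other members (blue) and GC-rich genes outside the group (grey). B35 replicate 1 has the highest blue point at 0.20 and the lowest grey point at −0.12.

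The most abundant members per kilobase of exon were ZNF146, ZNF787, ZNF428, ZNF358 and ZNF581, and of these ZNF581 alone passed. ZNF146, which consists almost wholly of zinc fingers, had 140, 113 and 106 CPM in the B35 libraries, against 149, 101 and 126 CPM in the control libraries, and the groups overlapped. ZNF787 averaged 59.3 ± 12.1 CPM in B35 cells and 66.0 ± 3.48 CPM in control cells (SD, n = 3 each). ZNF428, with 1 C2H2 motif, had 11.8, 28.8 and 38.3 CPM in the B35 libraries, against 33.1, 38.2 and 30.8 CPM in the control libraries. Its low value lay in B35 replicate 1, and its log2 fold change of −0.37 ± 0.31 (SE, edgeR adjusted p = 0.453) had a 95% interval from −1.05 to 0.31. ZNF358 had 27.1, 40.7 and 39.0 CPM in the B35 libraries, against 28.5, 24.7 and 23.8 CPM in the control libraries. Again B35 replicate 1 was the lowest of its group, and without it ZNF358 passed (log2 0.63, edgeR adjusted p = 0.00181). In the main fit ZNF358 did not pass (edgeR adjusted p = 0.0613). It passed in 7 of 16 other fits and not in 9. Only 1 of those 7 left out a library. With all libraries it passed with DESeq2 (adjusted p = 0.0343) and after the correction for GC and length (edgeR adjusted p = 0.0158). Neither ZNF428 nor ZNF358 has a KRAB motif, and their transcript GC contents are 61.3% and 69.1%. Other genes share 27.6% of the exon positions of ZNF428 and 34.4% of those of ZNF358. ZNF787 was lower after the correction for GC and length (log2 −0.28, edgeR adjusted p = 0.0233), and ZNF428 was lower without the filter on counts (log2 −0.38, edgeR adjusted p = 0.0419).

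Members chosen after their values were seen fill in the picture. ZNF274, which binds the last exons of other ZNF genes and brings SETDB1 there, had 20.1, 19.6 and 18.6 CPM in the B35 libraries, against 21.6, 18.8 and 19.98 CPM in the control libraries. The groups overlapped, and the 95% interval of the log2 fold change of −0.05 ran from −0.30 to 0.20. ZNF91, which represses SVA retrotransposons, had 10.3, 6.605 and 6.80 CPM in the B35 libraries, against 7.42, 5.92 and 4.34 CPM in the control libraries, and did not pass (log2 0.42 ± 0.24, SE, edgeR adjusted p = 0.259). ZNF227 and ZNF283, both KRAB genes, missed the threshold narrowly at 1.42-fold and 1.30-fold (edgeR adjusted p = 0.0542 and 0.0604), with no overlap between groups, and other genes share 19.1% of the exon positions of ZNF227. ZNF490 and ZNF497 had log2 fold changes of 1.02 and 1.03, but on 16 to 29 counts in the B35 libraries and 6 to 16 counts in the control libraries (edgeR adjusted p = 0.0837 and 0.0964), and other genes share 61.3% and 53.4% of their exon positions. The member lower at an unadjusted p under 0.05 was ZNF587B, at 17.1 ± 2.22 CPM in B35 cells and 21.2 ± 2.11 CPM in control cells (SD, n = 3 each, edgeR adjusted p = 0.141).

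Part of the group had few or no assigned counts in both groups of cells, as did part of every set beside it. Of 1226 other protein-coding genes of chromosome 19, 498 had too few counts to test and 251 had none. Of 263 ZNF genes on other chromosomes the numbers were 52 and 32, and of all 58735 genes 43962 and 31018. Of the 82 members with too few counts to test, 58 had no count in any library. With 3 counts taken as the limit for counting error, that allows a level of up to 0.175 CPM per library, here without the TMM factor. That limit covers reads assigned to the gene alone: 16 of the 82 (and 9 of the 58) share 10% or more of their exon positions with other genes, so reads from them may not have been assigned. The same holds for 48 of the 164 tested members. Examples are ZNF177 with 90.8% shared, mostly with the readthrough gene ZNF559-ZNF177, and ZNF625 with 86.7%. The 82 members together held 79, 59 and 56 counts in the B35 libraries, against 52, 42 and 46 counts in the control libraries. Among all 246 members, 7 had counts in B35 libraries alone, with at most 5 in total, and 3 had counts in control libraries alone, with at most 2. Members with at least 1 count numbered 182, 177 and 178 in the B35 libraries and 176, 175 and 174 in the control libraries. Over all genes the numbers were 21926, 21464 and 22365 in the B35 libraries and 21249, 21554 and 21077 in the control libraries. The small excess of members with B35 was thus near that of all genes.

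The members with too few counts were unevenly spread along the chromosome. Where neighbouring starts over 1 Mb apart divide the group, 9 stretches of at least 5 members result, numbered from the start of the chromosome, with 11 members scattered between them. Stretch 4, from 19668796 to 24129961, holds 37 members, of which 24 had too few counts to test and 22 had no count at all. Its 13 tested members had a median log2 fold change of −0.03, with 5 positive. Stretch 3, from 11483427 to 12640098, had 13 of 25 members untested, and 7 of these 13 share 10% or more of their exon positions with other genes, among them ZNF709 with 82.5% and ZNF564 with 69.9%. In stretch 4 the same holds for 2 of the 24 untested members. In stretch 1, from 2819874 to 2944971, all 5 members were tested and all 5 were positive, and ZNF554 was the 1 that passed. In stretch 5, from 34677639 to 34964049, ZNF792 passed while the other 4 of 5 were negative, between −0.31 and −0.07. Stretch 8, from 51571298 to 53580269, had 23 of 28 tested members positive with 1 called, and stretch 9, from 55476332 to 58481230, 29 of 43 with 2 called. No test between stretches was made.

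**Figure D5:**
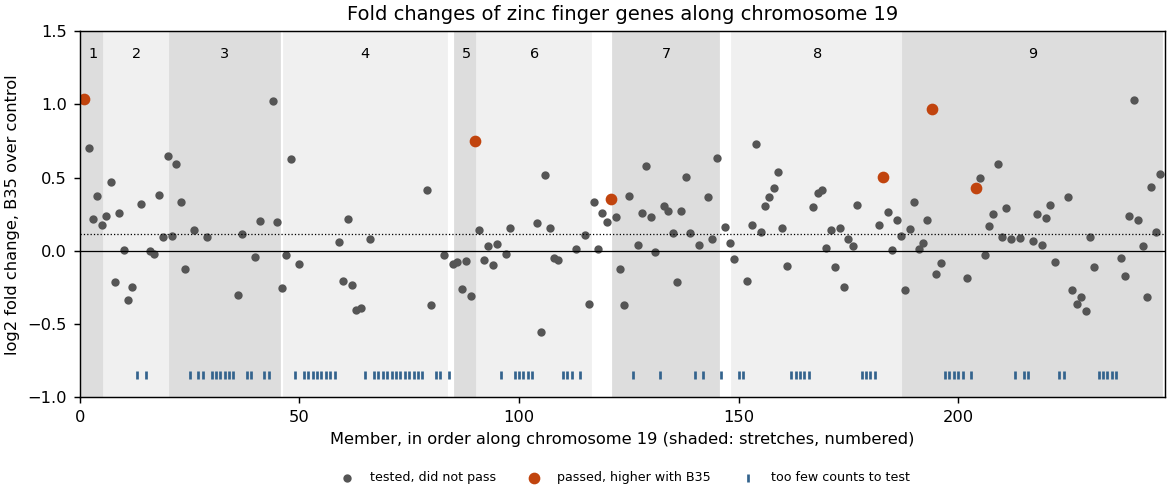
Log2 fold change (B35 over control) of each member in order along chromosome 19, with shaded and numbered stretches, orange points for the 6 that passed, blue ticks for members with too few counts and a dotted line at the median of 0.12. Blue ticks crowd stretches 3 and 4, and the orange points lie in stretches 1, 5, 8 and 9 and outside the stretches.

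By protein features, the calls were spread over both kinds of gene. Of 135 tested members with a KRAB-like motif, 4 were higher (2.96%) with a median of 0.12, and of 29 without it 2 were higher (6.90%) with a median of 0.10. Members with 15 or more C2H2 motifs had a median of 0.18 with 40 of 52 positive and none called, those with 10 to 14 had a median of 0.09 with 3 of 66 called, and those with 1 to 9 had a median of 0.15 with 3 of 45 called. At 5 CPM or more, 4 of 108 members were called, and at 1 to 5 CPM 2 of 49. Zinc finger genes resemble each other, so reads may be shared among them. In 56 members 10% or more of the 50-base words of the longest transcript also occurred in another gene's transcript, and without these members 5 of 126 were higher, ZNF581 being the 1 left out.

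Among 22 genes of the silencing pathway that KRAB proteins use, 2 fell (9.09%) and none rose, beside 6.59% lower among all genes tested, so the share that fell was near the background. Of the 22, 19 had a negative log2 fold change. TRIM28, the KRAB cofactor, averaged 388 ± 55.1 CPM in B35 cells and 453 ± 9.83 CPM in control cells (SD, n = 3 each) and did not pass (log2 −0.22 ± 0.11, SE, edgeR adjusted p = 0.192). SETDB1, the methyltransferase of histone H3 lysine 9, averaged 38.7 ± 3.27 CPM in B35 cells and 34.6 ± 0.55 CPM in control cells (SD, n = 3 each, edgeR adjusted p = 0.324). The members that fell were UHRF1, which guides maintenance DNA methylation, by 0.62 ± 0.11 on the log2 scale (SE, edgeR adjusted p = 0.00482), and the methyltransferase gene DNMT1 by 0.48 ± 0.086 (SE, edgeR adjusted p = 0.00515). After the correction for GC and length, 9 of the 22 fell, TRIM28 among them (log2 −0.34, edgeR adjusted p = 0.00664), beside 15.8% of all genes tested. Of 17 other C2H2 genes of chromosome 19 with names such as ZFP or ZSCAN, 7 had enough counts to test and none passed, with 1 at an unadjusted p under 0.05 and none with DESeq2 or limma-voom. ZBTB45 came closest, with 23.4 ± 2.58 CPM in B35 cells and 17.9 ± 0.663 CPM in control cells (SD, n = 3 each, edgeR adjusted p = 0.0526).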

How the data were processed

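RNA-seq libraries were made from TRIzol-extracted RNA with a NEBNext Ultra kit, per the labels. The submitters' processing notes name hg38, HISAT2 2.0.5 and featureCounts 1.5.0-p3, but the annotation and strand setting are not stated there. For each library the authors deposited raw counts of reads by gene. The deposited FPKM values alongside served only to check exon lengths. All 58735 identifiers matched GENCODE release 29.

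Counts were tested with edgeR 4.0.16 (R 4.3.3) by the quasi-likelihood test, two-sided. Genes passed filterByExpr with a minimum count of 10 and minimum total of 15, and scaling was by TMM, with Benjamini-Hochberg adjustment over 14773 genes. The SE is the log2 fold change divided by the square root of F. Each library was counted as 1 replicate. Replicate pairs differed beyond counting noise, with chi-square over degrees of freedom between 4.46 and 32.3. Such a spread does not show that the libraries came from separate cultures.

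Alternatives were other scalings and filters, robust dispersion, DESeq2 1.42.0, limma-voom 3.58.1, a replicate block, removal by offsets of each library's spline trend on transcript GC content and exon length, and leaving out each library or genes with exon overlaps. KRAB-like and C2H2 motifs were sought in translated GENCODE coding regions, a source chosen after seeing the data, as was the share of 50-base words. 1 of the cell type markers is not reported here. Figures used Python 3.11.15 and matplotlib 3.10.9.

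The members and lists were chosen with earlier results of these data known. Named members are the 6 called, the 5 with the highest level per kilobase, TRIM28, SETDB1, KDM1A, called members of the 2 other lists, and others where stated as chosen after their values were seen. ZNF580, ZNF738, ZNF208, ZNF585A, ZNF791, ZNF431, ZNF177, ZNF625, ZNF709, ZNF564 and ZBTB45 were also singled out after their values were seen.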

Additional observations from a re-analysis of the deposited data

How the results depend on the processing

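Of 246 members 82 had too few counts to test, and 7 of the 89 members under 1 CPM were tested. The count of members higher was 6, and it was 6 to 9 with the other scalings, a mean CPM of 1 or more, robust dispersion, DESeq2 and limma-voom, with none lower. ZNF554 and ZNF581 passed in all 16 other fits, and no named gene passed in opposite directions.

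With no filter beyond 1 count in total, 10 members were higher and 1 lower, ZNF genes on other chromosomes had 20 higher and 5 lower, and other protein-coding genes of chromosome 19 had 72 lower. After the correction for GC and length, 15 members were higher and 2 lower, 2329 genes in all were lower, ZNF genes on other chromosomes had 20 higher and 7 lower, other protein-coding genes of chromosome 19 had 168 lower, 9 silencing cofactors were lower and 1 other C2H2 gene was lower. All 6 members called remained among the 17 called there. DESeq2 called 3 ZNF genes on other chromosomes and 5 cofactors lower, and upper-quartile scaling called 1 other C2H2 gene higher. The causes of these shifts were not tested.

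The replicate numbers shared by the groups gave no clear pairing of the libraries. The correlation of same-numbered deviations was 0.163, 0.0162 and −0.063. B35 replicates 1 and 2 correlated best with the control of the same number, and B35 replicate 3 with control replicate 2. Deviations within a group of 3 sum to 0, so these correlations depend on each other and cannot exclude pairing. Over all genes the replicate block gave 1594 higher and 1261 lower, against 1303 and 973 without it. With the replicate block, 10 members were higher, ZNF genes on other chromosomes had 21 higher and 3 lower, other protein-coding genes of chromosome 19 had 69 lower, and 1 other C2H2 gene was higher. With the block and the GC and length trends removed together, 15 members were higher and 3 lower, 2321 genes in all were lower, ZNF genes on other chromosomes had 24 higher and 9 lower, other protein-coding genes of chromosome 19 had 168 lower, and 8 cofactors were lower.

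When 1 library was left out in turn, the members higher numbered 2 to 9 and none was lower, and their median ran from 0.063 to 0.149. The low ends came without a control, with 2 each without control replicates 1, 2 and 3. Over all genes 587 to 1822 were higher and 294 to 1520 lower. ZNF genes on other chromosomes had 3 to 22 higher and 0 to 4 lower, other protein-coding genes of chromosome 19 had 45 to 162 higher and 15 to 46 lower, the cofactors had 2 to 3 lower and the other C2H2 genes had 0 to 1 higher.

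With genes that share exon positions left out, fewer genes were counted by construction. Of 71 tested members 4 were higher and none lower, with a median of 0.126. Of all 7672 genes tested 767 were higher and 510 lower. Of 109 ZNF genes on other chromosomes 6 were higher and 1 lower. Of 336 other protein-coding genes of chromosome 19, 51 were higher and 21 lower, and of 8 cofactors 1 was lower.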
